A study of Mus musculus with 10 samples.

Results

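The genes described here encode the enzymes and carriers that burn fatty acids in mitochondria and peroxisomes and that make or use ketone bodies. The members were listed by name, 41 in all, and taken from the deposited table through the Entrez Gene ID of each row. Of these, 40 had a row among the 16475 genes tested, and Scp2 is not analysed here. The 40 fall into 22 mitochondrial, 14 peroxisomal and 4 ketone genes. Some products work in both organelles: Crat, Eci2 and Acad11 are counted here as mitochondrial and Ech1 as peroxisomal.

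Expression was measured in kidney cortex from which glomeruli had been removed, in BKS mice aged 24 weeks. The diabetic group held 5 db/db mice, in which both copies of Lepr, the gene for the leptin receptor, are mutant throughout the body. The control group held 5 nondiabetic db/m littermates, with 1 mutant copy. No other allele, drug or diet is named in the labels. Each mouse gave 1 Affymetrix array, and values are log2 expression levels. Mice are numbered 1 to 5 within each group. Differences are log2 levels in db/db minus those in db/m and carry limma's standard error, and group means are given with the SD over 5 mice unless another n is stated. A gene is said to have risen or fallen where its p, adjusted with Benjamini-Hochberg over all 16475 genes, was under 0.05.

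Long-chain fatty acids enter mitochondria as carnitine esters, are shortened in repeated rounds by a dehydrogenase, a hydratase, a second dehydrogenase and a thiolase, and pass their electrons on through the electron transfer flavoprotein. Peroxisomes shorten very long, branched and dicarboxylic chains, starting with an oxidase, and hand the products on as carnitine esters. Proximal tubule cells of the cortex draw most of their energy from fatty acids and can also use ketone bodies, which are interconverted and activated in mitochondria.

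Mouse db/db 1 stood apart from the other mice over all genes, with correlations of 0.938 to 0.962 with the other arrays against 0.985 or more among those, so each comparison is given with all 10 arrays and again without it. With all arrays 6.51% of the genes tested passed the threshold, 2.96% higher and 3.54% lower in db/db. After db/db 1 was left out the share was 12.8%, with 6.84% higher and 5.93% lower. The number called ranged from 490 without db/m 3 to 2104 without db/db 1. It lay between 576 and 684 without db/m 1, db/m 4, db/m 5, db/db 2 or db/db 3. Median centring of the arrays gave 363 higher and 751 lower genes, against 488 and 584 on the deposited scale. The tissue label was checked against markers: genes of the first proximal tubule segments were bright, such as the phosphate transporter gene Slc34a1 at a mean of 13.76 in control and 13.72 in diabetic mice, and the 7 podocyte genes measured were still detected, with 5 of 7 higher in db/db. The summed level of those podocyte genes ranged from 11.87 to 12.08 in db/m and from 12.29 to 12.61 in db/db.

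Of the 40 members 1 passed the threshold with all arrays, Bdh1, which fell. Leaving out db/db 1 gave 5: Cpt1b and Decr2 rose, and Bdh1, Crot and Oxct1 fell. These are shares of 1 in 40 and 5 in 40 beside the 6.51% and 12.8% of all genes. Counts this small do not set the members apart from the background in either fit. At an unadjusted p under 0.05 the counts were 8 and 13 of the 40 members, beside 3547 and 4364 of all 16475 genes. The median difference over the members was -0.02 with all arrays and 0.02 without db/db 1, beside -0.03 and -0.01 over all genes. The groups did not overlap for 6 members, Eci1 and Pex11a on the higher side and Ehhadh, Bdh1, Oxct1 and Acat1 on the lower side. Among all genes 10.2% did not overlap. With db/db 1 left out there were 10 such members, beside 15.4% of all genes.

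**Figure D1:**
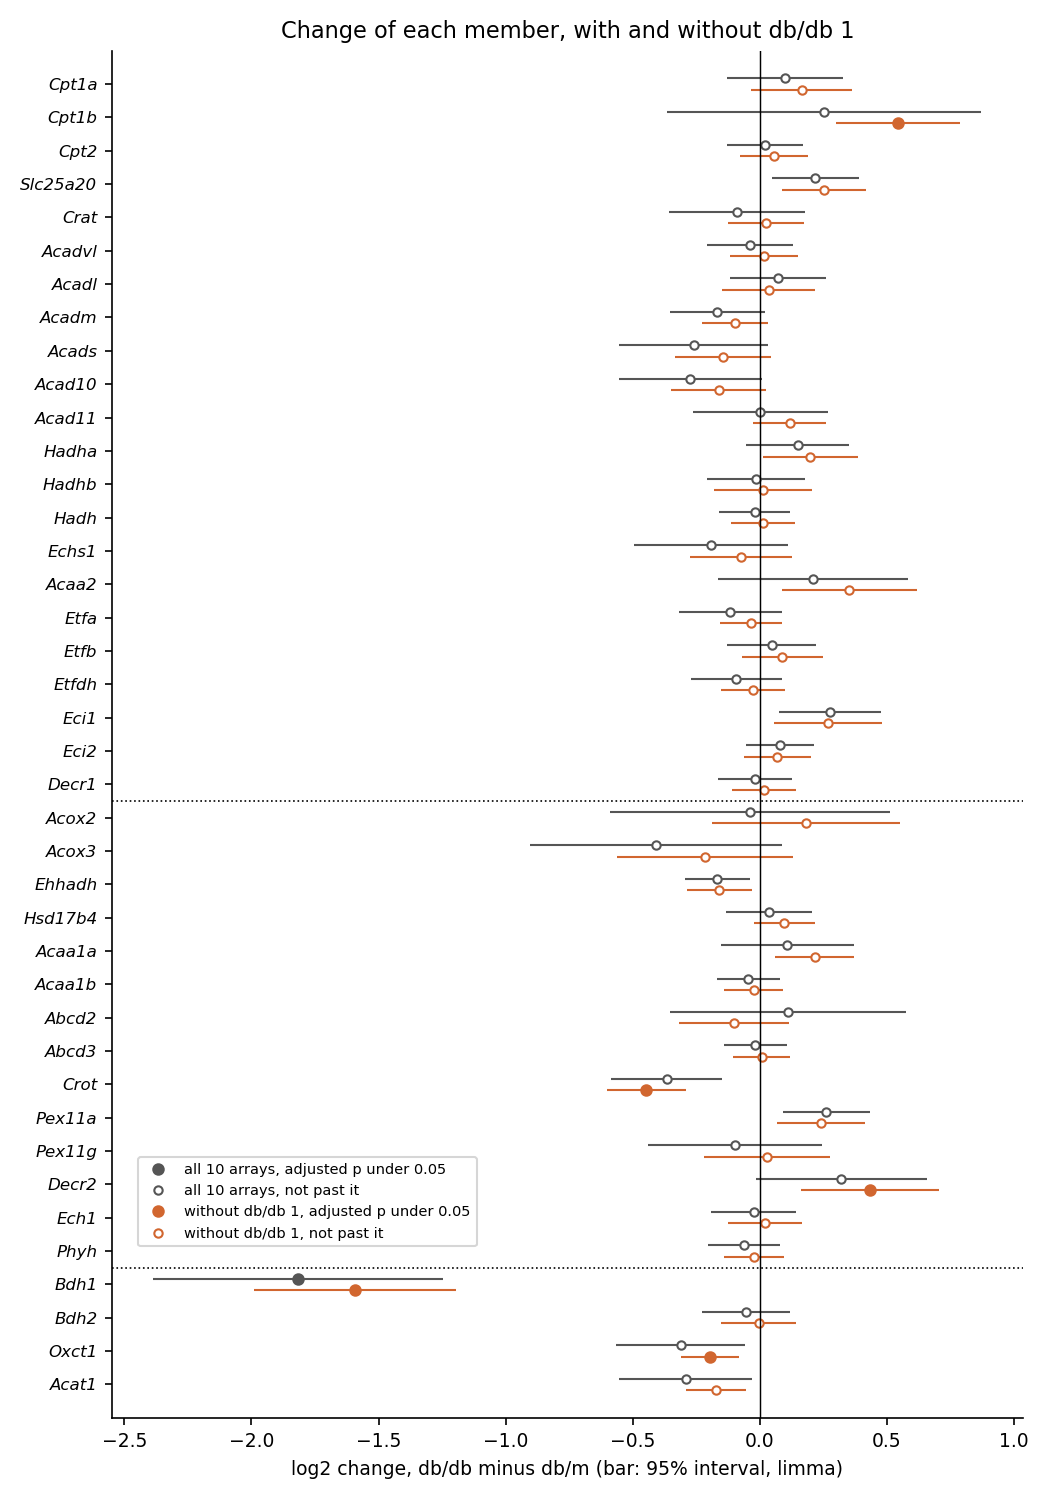
The log2 difference of each of the 40 members, db/db minus db/m, is plotted with its 95% interval from limma, in grey for all 10 arrays and in orange without db/db 1, with filled points for an adjusted p under 0.05. Dotted lines part mitochondrial, peroxisomal and ketone genes, and Bdh1 is the member far from 0, at -1.81 with all arrays and -1.59 without db/db 1.

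Most intervals were narrow. For 28 of the 40 members the 95% interval of the difference lay within 0.5 log2 units of 0 on either side with all arrays. That is 70% beside 60% of all genes. Without db/db 1 it did so for 33 members, or 82.5% beside 69.6% of all genes. Apart from Bdh1, differences with all arrays ran from -0.41 for Acox3 to 0.32 for Decr2.

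The stretches of 250 bases before the RefSeq starts of 4 of the 5 members that passed in either fit are shown so that the start regions of the genes that fell (Bdh1, Crot, Oxct1) can be set beside that of one that rose (Decr2). Bdh1 has 2 starts in RefSeq, both shown. The build is GRCm38.p6, each sequence runs 5′ to 3′ on the strand of the gene, and capitals mark the GC box GGGCGG or its reverse complement. The stretches lie at chr16:31422047-31422296 and chr16:31428503-31428752 on the plus strand for Bdh1, at chr5:8997147-8997396 on the minus strand for Crot, at chr15:4026178-4026427 on the plus strand for Oxct1 and at chr17:26090165-26090414 on the minus strand for Decr2.
Bdh1 start 1: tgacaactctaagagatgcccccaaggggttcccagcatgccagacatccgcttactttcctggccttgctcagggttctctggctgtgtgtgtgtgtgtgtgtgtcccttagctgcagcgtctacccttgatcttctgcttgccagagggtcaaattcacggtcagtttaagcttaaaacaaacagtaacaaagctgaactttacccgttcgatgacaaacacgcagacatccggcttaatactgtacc
Bdh1 start 2: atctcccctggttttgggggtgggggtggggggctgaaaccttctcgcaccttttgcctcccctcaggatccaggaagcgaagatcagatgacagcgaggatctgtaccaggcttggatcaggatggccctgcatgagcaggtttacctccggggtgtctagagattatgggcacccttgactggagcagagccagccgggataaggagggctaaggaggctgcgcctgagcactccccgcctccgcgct
Crot: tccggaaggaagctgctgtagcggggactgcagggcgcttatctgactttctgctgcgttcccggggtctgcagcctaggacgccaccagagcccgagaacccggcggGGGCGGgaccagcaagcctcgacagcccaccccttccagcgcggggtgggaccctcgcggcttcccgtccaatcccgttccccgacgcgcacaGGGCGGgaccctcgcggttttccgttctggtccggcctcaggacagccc
Oxct1: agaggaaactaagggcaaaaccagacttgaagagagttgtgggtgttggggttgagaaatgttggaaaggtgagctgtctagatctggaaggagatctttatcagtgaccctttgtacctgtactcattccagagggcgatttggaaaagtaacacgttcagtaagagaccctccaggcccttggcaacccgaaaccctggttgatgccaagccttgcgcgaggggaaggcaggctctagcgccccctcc
Decr2: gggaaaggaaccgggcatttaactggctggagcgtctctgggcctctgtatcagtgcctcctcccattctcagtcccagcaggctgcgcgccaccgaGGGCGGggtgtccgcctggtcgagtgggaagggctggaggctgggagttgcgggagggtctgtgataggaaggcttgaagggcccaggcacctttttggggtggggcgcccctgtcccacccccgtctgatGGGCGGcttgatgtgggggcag
Crot and Decr2 each have 2 GC boxes before the start, and Bdh1 and Oxct1 have 0 in these stretches. A box of Bdh1 counted next lies at least partly past the start. In windows from 250 bases before to 50 after the start, found for 33 members with 36 windows in all, 23 windows (63.9%) held a GC box on either strand, beside 35.7% of all 32851 windows. The nuclear receptor hexamer AGGTCA was in 6 of the 36 windows, of Acadm, Acadvl, Cpt1a, Echs1, Pex11g and Phyh, or 16.7% beside 16.3% of all windows. Direct repeat 1, the paired and spaced form of that hexamer known as the site of PPAR-alpha with its partner, and TCAAGGTCA, known for the estrogen-related receptors, both of which can contain the hexamer, were in 0 of the 36, beside 0.381% and 0.423% of all windows. These letters are a description of the windows, and sites farther away were not looked at.

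The ketone genes held the largest difference. Bdh1 encodes the mitochondrial dehydrogenase that interconverts 3-hydroxybutyrate and acetoacetate. Its level was 12.66, 12.40, 12.55, 12.40 and 12.72 in db/m mice 1 to 5 and 9.85, 11.06, 10.52, 10.73 and 11.50 in db/db mice 1 to 5. Every db/db mouse was below every db/m mouse, db/db 1 was the lowest, and the db/db mice were also more widely spread. Bdh1 (Entrez Gene 71911) fell from 12.55 ± 0.15 to 10.73 ± 0.62, or 3.52-fold (difference -1.81 ± 0.26, adjusted p = 0.00409). In the 9 other mice the fall was 3.02-fold (-1.59 ± 0.18, adjusted p = 0.000725). Leaving out any 1 of the 10 arrays kept the call (highest adjusted p = 0.0156). In these bulk samples fewer cells of a type and less RNA per cell cannot be told apart. Of 8 markers of the last proximal tubule segment, S3, 5 fell with all arrays, beside 3.54% of all genes, and 1 differed upward (0.43). The summed level of the 8 ranged from 15.26 to 15.77 in db/m and from 13.73 to 14.27 in db/db. It was lowest in db/db 3, and 13.80 in db/db 1, the mouse with the lowest Bdh1. The 10 markers of the first segments, S1 and S2, had 0 calls, 3 of the 8 S3 markers did not pass, and the summed S1 and S2 level was 16.18 to 16.32 in db/m, 15.80 in db/db 1 and 16.32 to 16.39 in the other db/db mice. The part of S3 cells in the fall of Bdh1 was not tested.

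Oxct1 encodes the transferase that activates acetoacetate for oxidation outside the liver. Its level was 13.14, 13.16, 13.13, 13.20 and 13.13 in db/m and 12.38, 12.93, 12.96, 12.97 and 12.95 in db/db. The groups did not overlap, and db/db 2 to 5 lay close together while db/db 1 was well below them. With all arrays the difference was -0.31 ± 0.11 (adjusted p = 0.143). Leaving out db/db 1, Oxct1 fell by 0.20 ± 0.05 (adjusted p = 0.0327), a call kept in 1 of 9 fits that left out a further array, with adjusted p up to 0.0749.

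Acat1, the mitochondrial thiolase that splits acetoacetyl-CoA and also serves isoleucine breakdown, was also lowest in db/db 1. It was at 13.74 to 13.78 in db/m, at 12.99 in db/db 1 and at 13.51 to 13.63 in db/db 2 to 5, so that the groups again did not overlap. Its difference was -0.29 ± 0.12 (adjusted p = 0.183), or -0.17 ± 0.05 without db/db 1 (adjusted p = 0.0608). Bdh2, a cytosolic dehydrogenase related to Bdh1, overlapped between groups, at 13.91, 13.75, 13.83, 13.89 and 13.97 in db/m and 13.62, 13.84, 13.95, 13.90 and 13.77 in db/db. Its difference was -0.05 ± 0.08 with an interval of -0.23 to 0.12, which does not reach the fall of Bdh1.

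**Figure D2:**
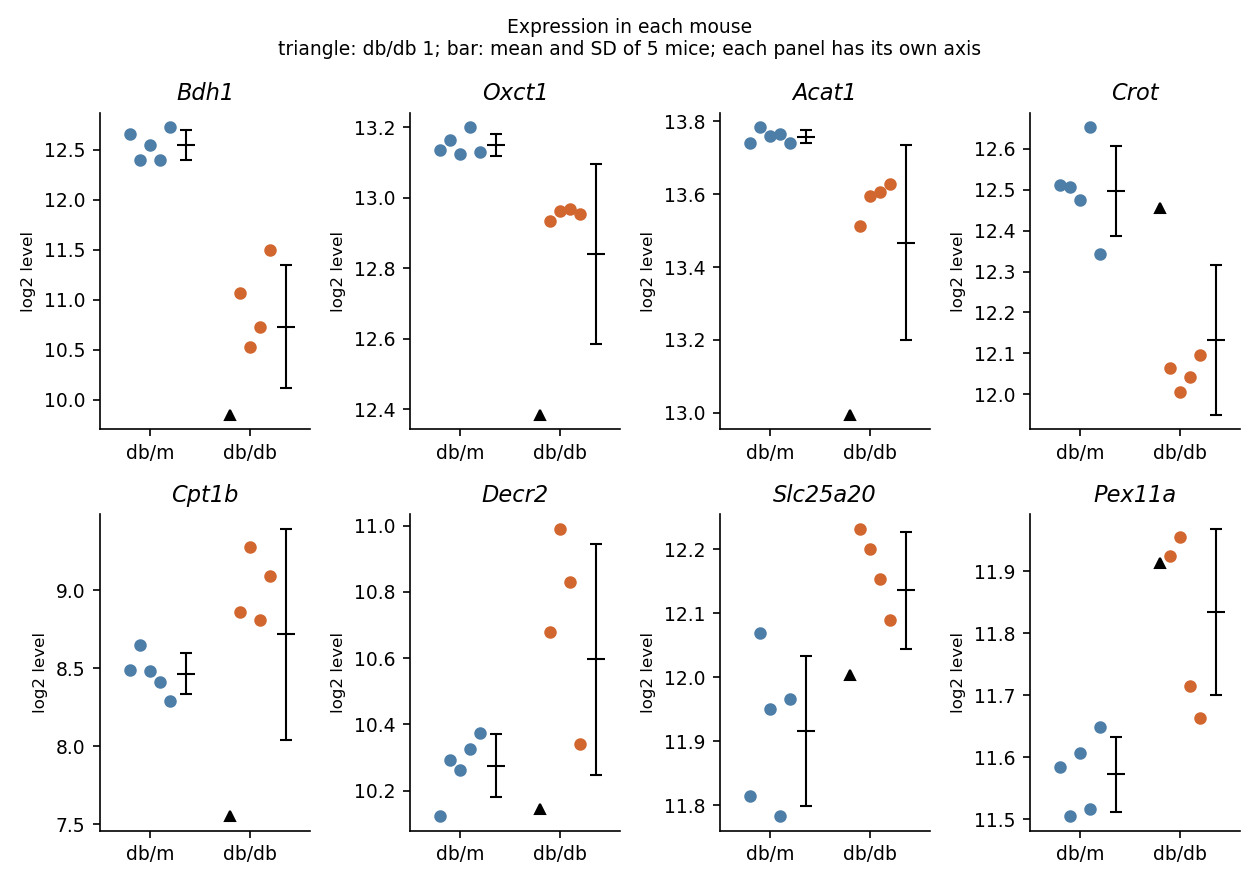
The log2 level of 8 members is plotted for each mouse, blue for db/m, orange for db/db 2 to 5 and a black triangle for db/db 1, with bars for the mean and SD of 5 mice and a separate axis for each gene. Bdh1, Oxct1 and Acat1 lie lower in all 5 db/db mice, Pex11a lies higher in all 5, and for Crot, Cpt1b and Slc25a20 db/db 2 to 5 lie apart from db/m while db/db 1 does not follow them.

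In the carnitine shuttle none of the 5 genes passed with all arrays, and Cpt1b rose without db/db 1. The shuttle is formed by the outer membrane transferases Cpt1a and Cpt1b, the carrier Slc25a20 and the inner membrane transferase Cpt2. Cpt1a is the form known from liver and kidney and Cpt1b the form known from muscle and heart. Cpt1b was at 8.49, 8.65, 8.48, 8.41 and 8.29 in db/m and at 7.55, 8.86, 9.27, 8.81 and 9.09 in db/db. Mice db/db 2 to 5 were above every db/m mouse and db/db 1 was the lowest of all 10. The difference was 0.25 ± 0.28 with all arrays (adjusted p = 0.648). In the 9 other mice it was 0.54 ± 0.11 (adjusted p = 0.0111), or 1.46-fold, and it passed in all 9 fits that left out a further array, with adjusted p up to 0.0322. The 6 skeletal muscle markers measured had 0 calls in either fit, with a summed level of 8.37 to 8.66 in db/m and 8.24 to 8.82 in db/db. Of the 6 adipocyte markers 0 were called with all arrays and 1 was lower without db/db 1. In the same fit markers of other cells were higher beside Cpt1b: 5 of 6 of the distal convoluted and connecting tubule (median difference 0.42), 4 of 6 of principal cells (0.44) and 7 of 7 of podocytes (0.56). Of the 5 intercalated cell markers 1 was higher (0.31), while 0 were higher in the S1 and S2 list and in that of the thick ascending limb. Over all genes 6.84% were higher in this fit. The part of these cell types in the Cpt1b values was not tested.

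Cpt1a was at 11.76, 11.66, 11.61, 11.59 and 11.61 in db/m and at 11.48, 11.67, 11.70, 11.80 and 12.07 in db/db, so that the groups overlapped, with db/db 1 lowest and db/db 5 highest. Its difference was 0.10 ± 0.10 (adjusted p = 0.624), or 0.16 ± 0.09 without db/db 1 (adjusted p = 0.276). Slc25a20, the carnitine and acylcarnitine exchanger, had the lowest p of the shuttle with all arrays, at 11.81, 12.07, 11.95, 11.78 and 11.97 in db/m and 12.23, 12.20, 12.15 and 12.09 in db/db 2 to 5, all above the highest db/m mouse. Mouse db/db 1 lay inside the db/m range, 0.09 above its mean. The difference of 0.22 ± 0.08 (adjusted p = 0.129) did not pass, and that of 0.25 ± 0.07 without db/db 1 was just outside the threshold (adjusted p = 0.0516). Cpt2 differed by 0.02 ± 0.07, with an interval of -0.13 to 0.17. Crat, which forms short-chain carnitine esters, differed by -0.09 ± 0.12, with db/db 1 at 10.83 and the other 9 mice between 11.23 and 11.50.

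The acyl-CoA dehydrogenases open each round and are graded by chain length. None of the 6 passed in either fit. The very-long-chain gene Acadvl differed by -0.04 ± 0.08 and the long-chain gene Acadl by 0.07 ± 0.08. The medium-chain gene Acadm differed by -0.17 ± 0.08 and the short-chain gene Acads by -0.26 ± 0.13. Acad10 had the lowest p of the 6 with all arrays: its level was 11.39, 11.17, 11.41, 11.30 and 11.40 in db/m and 10.62, 11.13, 11.01, 11.34 and 11.20 in db/db. Its difference was -0.27 ± 0.13 (adjusted p = 0.246), or -0.16 ± 0.08 without db/db 1 (adjusted p = 0.254). The groups overlapped for all 6 genes. Mouse db/db 1 was the lowest of all mice for each of them but Acadl, and stood at -0.73 and -0.71 from the db/m mean for Acads and Acad10.

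None of the 5 genes of the hydratase, dehydrogenase and thiolase steps passed in either fit. Hadha and Hadhb encode the subunits of the trifunctional protein for long chains. Hadha was at 11.85, 11.72, 11.75, 11.77 and 11.91 in db/m and 11.75, 12.02, 12.17, 12.03 and 11.79 in db/db, a difference of 0.15 ± 0.09 (adjusted p = 0.386). Hadhb differed by -0.02 ± 0.09, with an interval of -0.21 to 0.18. Hadh, for shorter chains, differed by -0.02 ± 0.06, and the hydratase gene Echs1 by -0.19 ± 0.14. For the thiolase gene Acaa2 the difference was 0.21 ± 0.17 (adjusted p = 0.52), and 0.35 ± 0.12 without db/db 1 (adjusted p = 0.085). Its level was 13.26, 13.56 and 13.38 in db/db 2 to 4, above the db/m range of 12.83 to 13.05, but 12.92 in db/db 5 and 12.56 in db/db 1.

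The electron transfer flavoprotein genes Etfa and Etfb and the oxidoreductase gene Etfdh differed by -0.12 ± 0.09, 0.05 ± 0.08 and -0.09 ± 0.08. Etfa had the lowest p of these with all arrays, at 13.85, 13.84, 13.83, 13.87 and 13.93 in db/m and 13.43, 13.77, 13.88, 13.88 and 13.80 in db/db, so that db/db 1 alone lay far from the rest. All 3 intervals lay within 0.5 of 0. Among the auxiliary genes, which rearrange double bonds, Eci1 was at 13.03, 12.67, 12.97, 12.74 and 13.02 in db/m and 13.19, 13.30, 13.14, 13.10 and 13.08 in db/db. The groups of Eci1 did not overlap, db/db 1 included, but the gap was small and the difference of 0.28 ± 0.09 did not pass (adjusted p = 0.106, or 0.099 without db/db 1). Eci2 differed by 0.08 ± 0.06 and the dienoyl-CoA reductase gene Decr1 by -0.02 ± 0.07. Many of these genes lay close to the upper end of the scale, which stopped at 14.5, and whether differences were compressed there was not tested.

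In the peroxisome Crot fell and Decr2 rose without db/db 1, and none of the 14 genes passed with all arrays. Crot encodes the transferase that turns medium-chain products of peroxisomal oxidation into carnitine esters for export to mitochondria. Its level was 12.51, 12.51, 12.48, 12.65 and 12.34 in db/m and 12.46, 12.06, 12.01, 12.04 and 12.10 in db/db. Mice db/db 2 to 5 lay together below every db/m mouse, and db/db 1 lay inside the db/m range. With all arrays the difference was -0.37 ± 0.10 (adjusted p = 0.0555). In the 9 other mice Crot (Entrez Gene 74114) fell 1.36-fold, by 0.45 ± 0.07 (adjusted p = 0.0035), and the call was kept in all 9 fits that left out a further array, with adjusted p up to 0.0129. With all arrays Crot was called beside Bdh1 where the dimmest genes were left out or arrays were centred, and also with eBayes trend and robust settings and with array weights.

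The 2 carnitine-linked genes of the list that passed without db/db 1 therefore went opposite ways, Cpt1b of mitochondrial entry upward and Crot of peroxisomal export downward. In both, db/db 1 was the mouse that did not follow the other db/db mice. Both were picked as passing only without that mouse, so this likeness is tied to the choice.

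Decr2 encodes the peroxisomal dienoyl-CoA reductase, the counterpart of mitochondrial Decr1. It was at 10.12, 10.29, 10.26, 10.33 and 10.37 in db/m and at 10.14, 10.68, 10.99, 10.83 and 10.34 in db/db. Mice db/db 2 to 4 were above the db/m range and db/db 1 and db/db 5 inside it. The difference was 0.32 ± 0.15 with all arrays (adjusted p = 0.254). In the fit without that mouse Decr2 rose by 0.43 ± 0.12 (adjusted p = 0.0441), a call kept in 1 of 9 fits that left out a further array, with adjusted p up to 0.113.

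The oxidases Acox2, which acts on branched chains and bile acid precursors, and Acox3 had wide intervals. Acox2 was at 11.06, 10.53, 10.41, 10.56 and 10.64 in db/m and 9.72, 10.95, 10.53, 10.60 and 11.21 in db/db, a difference of -0.04 ± 0.25. Acox3 was at 9.31, 9.18, 9.53, 9.77 and 9.52 in db/m and 8.29, 9.10, 9.47, 9.51 and 8.90 in db/db, a difference of -0.41 ± 0.22 (adjusted p = 0.326). The intervals were -0.59 to 0.51 and -0.90 to 0.09, and db/db 1 was the lowest mouse for both genes.

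The next steps are carried out by the bifunctional enzymes Ehhadh and Hsd17b4 and the thiolases Acaa1a and Acaa1b. Ehhadh was at 13.13, 13.08, 12.99, 13.12 and 13.11 in db/m and 12.88, 12.86, 12.95, 12.97 and 12.92 in db/db. All 5 db/db mice lay below all db/m mice, by a small margin, and the difference of -0.17 ± 0.06 did not pass (adjusted p = 0.121, or 0.103 without db/db 1). Hsd17b4, for branched chains, differed by 0.04 ± 0.08. Acaa1a was at 11.53, 11.33, 11.35, 11.35 and 11.44 in db/m and 11.08, 11.51, 11.60, 11.65 and 11.72 in db/db, with a difference of 0.11 ± 0.12 (adjusted p = 0.643), or 0.22 ± 0.07 without db/db 1 (adjusted p = 0.0722). Acaa1b was at 13.87, 13.78, 13.83, 13.77 and 13.80 in db/m and 13.68, 13.79, 13.80, 13.78 and 13.76 in db/db, with a difference of -0.04 ± 0.06 (adjusted p = 0.694). These paralogs are very similar in sequence, so probes for either can take up signal of the other, and their values are uncertain in that respect.

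Of the membrane proteins, Abcd3, an importer of acyl-CoA, differed by -0.02 ± 0.06 with all mice between 13.16 and 13.33. Abcd2, a related importer, was dim, at 4.02 ± 0.10 in db/m, and stood at 4.98 in db/db 1 against 3.69 to 4.10 in the other db/db mice. Pex11a, which promotes elongation and division of peroxisomes and is known to be induced through the fatty acid receptor PPAR-alpha, was at 11.58, 11.50, 11.61, 11.52 and 11.65 in db/m and 11.91, 11.92, 11.96, 11.71 and 11.66 in db/db. All db/db mice were above all db/m mice, though db/db 5 only just. The difference was 0.26 ± 0.08 (adjusted p = 0.0737, or 0.0722 without db/db 1), and Pex11a was called where quantile normalisation was repeated. Its relative Pex11g was at 9.80, 9.42, 9.80, 9.74 and 9.90 in db/m and 9.12, 9.92, 9.54, 9.73 and 9.85 in db/db, overlapping throughout, with a difference of -0.10 ± 0.15 (adjusted p = 0.761).

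The auxiliary isomerase gene Ech1 differed by -0.02 ± 0.08. Phyh, which opens the alpha oxidation of phytanic acid, differed by -0.06 ± 0.06, with an interval of -0.20 to 0.08. Neither gene had groups that were apart.

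**Figure D3:**
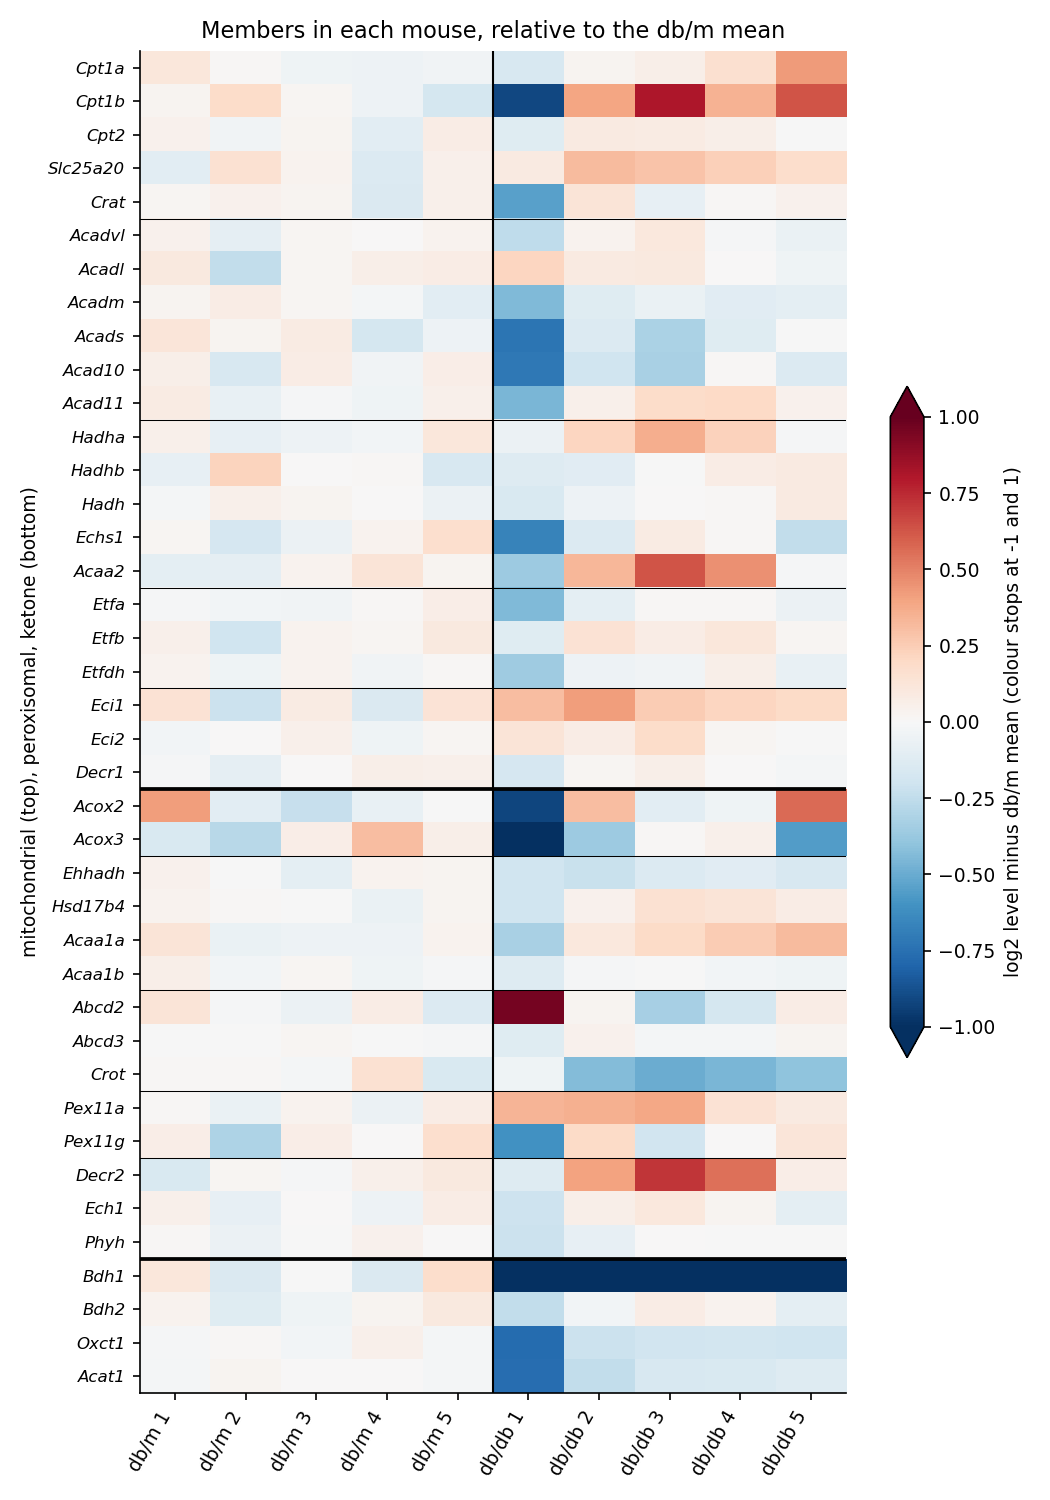
Each row is a member and each column a mouse, and the colour gives the log2 level minus the db/m mean of that gene, from blue for -1 to red for 1. Thin lines part the roles and thick lines the mitochondrial, peroxisomal and ketone genes; the column of db/db 1 is mostly blue, while in db/db 2 to 5 the rows of Bdh1, Crot, Oxct1 and Acat1 are blue and those of Cpt1b, Slc25a20, Eci1 and Pex11a are red.

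Set side by side by compartment, the median difference was -0.01 over the 22 mitochondrial genes, -0.03 over the 14 peroxisomal genes and -0.30 over the 4 ketone genes, beside -0.03 over all genes. With db/db 1 left out these were 0.03, 0.02 and -0.18, beside -0.01. In single mice the ketone median, as deviation from the db/m mean, was -0.77 in db/db 1 and -0.23 to -0.16 in db/db 2 to 5, against -0.05 to 0.04 in db/m. The mitochondrial median was -0.21 in db/db 1 and between -0.01 and 0.08 in the other db/db mice, and the peroxisomal median -0.20 in db/db 1 and between -0.00 and 0.05 in the others. The latter ranges overlap those of db/m, -0.04 to 0.05 and -0.04 to 0.04. Over all genes the median was already -0.17 in db/db 1, and between -0.02 and 0.01 in the other db/db mice. The mitochondrial and peroxisomal medians of db/db 1 thus lay close to its median over all genes. By role, its medians in these 2 compartments ran from -1.05 for the acyl-CoA oxidases to 0.13 for the mitochondrial auxiliary genes.

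**Figure D4:**
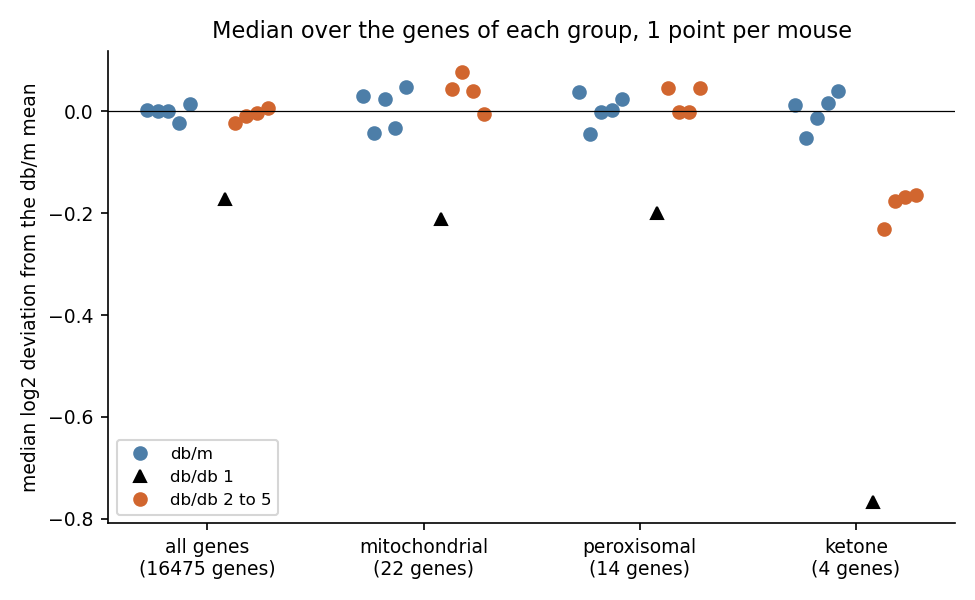
Each point is 1 mouse and gives the median deviation from the db/m mean, in log2 units, over all 16475 genes and over the mitochondrial, peroxisomal and ketone members, with db/db 1 as a triangle. Mouse db/db 1 is lowest in each group of genes, and only for the 4 ketone genes do db/db 2 to 5 lie below all db/m mice.

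Mouse db/db 1 was the lowest of all 10 mice for 28 of the 40 members, or 70%, beside 41.6% of all genes, and the highest for 2 members, Acadl and Abcd2. It was lowest for 15 of 22 mitochondrial, 9 of 14 peroxisomal and all 4 ketone genes. Leaving it out moved the difference upward for 34 of the 40 members, beside 10715 of all 16475 genes. The sign turned for 10 members, none of which passed the threshold in either fit. In the same mouse the summed level of the 7 macrophage markers was 15.25 against 12.46 to 12.76 in db/m, that of the 6 neutrophil markers 14.90 against 8.94 to 10.05, and that of the 9 fibroblast and smooth muscle markers 14.70 against 12.69 to 13.10. The S1 and S2 list was lowest in that mouse, at 15.80. Their part in its low member levels was not tested. Mouse db/db 2 also had a macrophage level above db/m, at 13.66, and db/db 2 and db/db 3 neutrophil levels of 12.70 and 12.84, while macrophage levels in db/db 3, 4 and 5, at 12.01, 11.68 and 11.48, were below all db/m mice.

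Genes next to the members were taken from lists of the same pathways. Of 28 measured genes of 37 listed for neighbouring steps of fatty acid, ether lipid and ketone metabolism, 1 rose and 8 fell with all arrays. The counts without db/db 1 were 3 higher and 9 lower. Over all genes the shares were 2.96% higher and 3.54% lower with all arrays, and 6.84% and 5.93% without db/db 1. The median difference was -0.15, or -0.05 without db/db 1. Hacl1, the lyase that cleaves chains in alpha oxidation after Phyh, was at 12.25, 12.09, 11.88, 11.80 and 12.20 in db/m and 12.83, 13.06, 13.17, 13.07 and 12.87 in db/db. The groups were far apart and db/db 1 was the lowest of the db/db mice. Hacl1 rose 1.94-fold (0.96 ± 0.11, adjusted p = 0.00125; without db/db 1 1.00 ± 0.11, adjusted p = 0.000639), in contrast to the -0.06 ± 0.06 of Phyh, a difference between genes that was not tested.

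Agps, the peroxisomal synthase that forms the ether bond of ether lipids, was at 12.27, 12.43, 12.66, 12.86 and 12.50 in db/m and 11.06, 10.89, 10.85, 11.04 and 11.47 in db/db, and fell 2.79-fold (-1.48 ± 0.14, adjusted p = 0.000486). The fall was of the same size without db/db 1 (-1.48 ± 0.15, adjusted p = 0.000478), and db/db 1 stood among the other db/db mice. Far1, which makes the fatty alcohol for ether lipids, fell 1.63-fold (-0.71 ± 0.09, adjusted p = 0.00334; -0.64 ± 0.07 without db/db 1). Both calls were kept in all 10 fits that left out 1 array.

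Others of the list that fell were Aacs, which activates acetoacetate in the cytosol for lipid synthesis (-1.32 ± 0.30, adjusted p = 0.0318), and Amacr, the racemase for branched chains (-0.54 ± 0.13, adjusted p = 0.0379). Aacs kept the call in 3 of 10 fits (adjusted p = 0.0717 without db/m 5) and Amacr in 2 (adjusted p = 0.0975 without db/m 3). Acad12, an acyl-CoA dehydrogenase gene, fell by 0.71 ± 0.13 (adjusted p = 0.012) and kept the call in all 10. The last 3 of the 8, Acad9, Gnpat and Nudt19, are named after their values were seen and differed by -0.48 ± 0.12, -0.38 ± 0.09 and -0.37 ± 0.08 (adjusted p = 0.0449, 0.0292 and 0.0283). They kept the call in 2, 3 and 4 of 10 fits, with the highest adjusted p (0.101, 0.0791 and 0.0844) without db/m 3 in each case. Without db/db 1 Abcd4 and Nudt7 of this list rose too (0.65 ± 0.09 and 0.32 ± 0.09, adjusted p = 0.00242 and 0.0378). Eci3 fell in that fit (-0.20 ± 0.06, adjusted p = 0.0483). These genes, also named after their values were seen, kept the call in 9, 2 and 0 of 9 fits without a further array. With all arrays none of them passed (adjusted p = 0.192, 0.317 and 0.200).

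**Figure D5:**
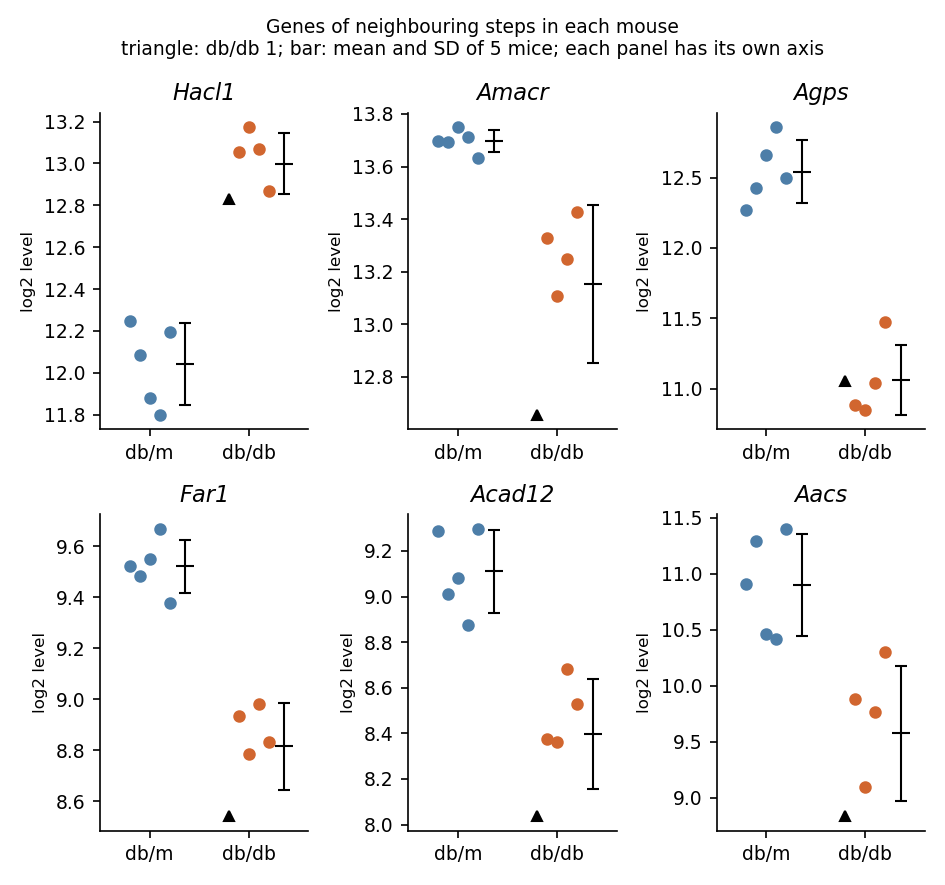
The log2 level of 6 genes of neighbouring steps is plotted for each mouse, with db/db 1 as a triangle, bars for the mean and SD of 5 mice and a separate axis for each gene. The groups do not overlap for any of the 6: Hacl1 lies higher in db/db, and Amacr, Agps, Far1, Acad12 and Aacs lie lower.

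Peroxisome assembly genes mostly did not pass: of 15 measured of 17 listed Pex2, part of the import machinery, fell (-0.30 ± 0.08, adjusted p = 0.0483, kept in 1 of 10 fits, adjusted p = 0.118 without db/m 3), and Pex16 rose without db/db 1 (0.31 ± 0.08, adjusted p = 0.0362), a call kept in 2 of 9 fits without a further array (adjusted p = 0.0843 without db/db 2). Pex2 also passed without db/db 1 (-0.26 ± 0.07, adjusted p = 0.0417), a call kept in 1 of 9 fits without a further array. The list thus had 1 call of 15 with all arrays, and 1 higher and 1 lower without db/db 1. Both counts are close to the 6.51% and 12.8% of all genes called. The list median was -0.08, or 0.00 without db/db 1.

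Among 27 measured regulators of 28 listed, 1 rose and 1 fell with all arrays. The counts without db/db 1 were 3 higher and 2 lower. These counts stand beside 6.51% and 12.8% of all genes called, and with all arrays the share of regulators was close to that background. The receptor gene Ppard fell by 0.51 ± 0.11 (adjusted p = 0.0203), and kept the call in 8 of 10 fits (adjusted p = 0.0556 without db/m 4). Rxrg, a partner of such receptors, rose by 1.09 ± 0.24 from a dim 5.84 ± 0.24 (adjusted p = 0.0264), a call kept in 3 of 10 fits (adjusted p = 0.0663 without db/m 4). Leaving out db/db 1, the coactivator gene Pprc1 fell by 0.50 ± 0.10, the orphan receptor gene Esrrb rose by 0.49 ± 0.11 and the mitochondrial deacylase gene Sirt5 rose by 0.31 ± 0.06 (adjusted p = 0.0121, 0.0208 and 0.0112). Esrrb kept the call in 6 of 9 fits without a further array (adjusted p = 0.0598 without db/db 3), and Pprc1 and Sirt5 in all 9. The receptor gene Ppara and the coactivator gene Ppargc1a, named after their values were seen, differed by 0.09 ± 0.21 and -0.09 ± 0.21 and did not pass (adjusted p = 0.84 and 0.848).

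PPAR-alpha is known to control lipid genes outside the members too. Of 26 measured of 30 listed, 7 were called higher and 2 lower with all arrays, and 12 higher and 2 lower without db/db 1, beside 6.51% and 12.8% of all genes called in either direction. Their median difference was 0.23, or 0.32 without db/db 1. In single db/db mice the median deviation from the db/m mean was 0.28 in db/db 1 and 0.28 to 0.33 in the others, against -0.10 to 0.12 in db/m. The largest differences were those of the binding protein gene Fabp1 (2.67 ± 0.37), the hydroxylase gene Cyp4a14 (2.44 ± 0.22), the uptake gene Cd36 (-2.12 ± 0.22), the lipase inhibitor gene Angptl4 (1.56 ± 0.33) and the thioesterase gene Acot3 (1.02 ± 0.20), with adjusted p between 0.000376 and 0.0233. Angptl4 kept its call in 7 of 10 fits (adjusted p = 0.0626 without db/m 4) and Acot3 in 9 (adjusted p = 0.0531 without db/m 3). Hilpda, a lipid droplet gene, did not pass with all arrays (adjusted p = 0.116) but did without db/db 1 (0.64 ± 0.15, adjusted p = 0.0217), a call kept in 6 of 9 fits without a further array (adjusted p = 0.0602 without db/db 3).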

How the data were processed

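Total RNA of 10 cortex samples was hybridised to Affymetrix arrays, 1 array per mouse. The table the authors deposited holds log2 values, 1 per Entrez Gene ID. The submitters' processing notes name RMA; its version and how probes were regrouped by gene are not given in the sources used here. In its usual form RMA makes the distributions of arrays alike, and a shift of the whole array cannot be measured. The 64 control rows were left out, and 16475 genes were fitted with limma 3.58.1 (R 4.3.3; lmFit, eBayes without trend, two-sided), with p values adjusted with Benjamini-Hochberg over all of them. Symbols came from the supplied probe annotation: 15780 rows had 1 symbol and 695 were not listed there and are unnamed. Summed marker levels are log2 of the sum of linear values. Lists are described by counts and medians, with no test of a list. Arrays give no counts, so the number of mice limits precision. The fit was tested on simulated data. The members and lists were chosen with earlier results of these data known. Members could all be named; other genes were named where past the threshold in either fit, at most 6 per list by size, except where the text says so. Alternatives were each array left out, the mouse number as a block, a filter on the lowest 25% of genes, repeated quantile normalisation, median centring, eBayes with trend, array weights and stricter thresholds. Fits without db/db 1 and a further array were added after seeing the data.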

Additional observations from a re-analysis of the deposited data

Results flagged for a closer look

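In each group of 5 mice the gap between the lowest or highest mouse and its neighbour was compared with the whole range of the group, for 40 members in 2 groups. The share of the range exceeded 0.71 in 10 of 80 groups. For a single group of normally distributed values chance gives about 1 in 20. The 80 groups come from the same 10 mice and are not independent, so the count cannot be judged against that rate. In 7 of the 10 groups past 0.71 the mouse was db/db 1. It was lowest for Oxct1 (0.941 of the range), Acadm (0.851), Acat1 (0.820), Acad11 (0.762), Etfa (0.755) and Cpt1b (0.729), and highest for Crot (0.800). The other 3 were in db/m: mouse 4 was lowest for Crat (0.856), and mouse 2 was lowest for Acadl (0.781) and Etfb (0.730).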

How the results depend on the processing

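Bdh1 was called lower at an adjusted p under 0.05 in every fit tried. The count of members called, 1 with all arrays, ranged from 1 to 5 when each array was left out (5 without db/db 1, 1 in each of the others) and from 3 to 6 without db/db 1 and a further array. It was 2 with the dimmest genes left out or arrays centred (Bdh1 and Crot) and with quantile normalisation repeated (Bdh1 and Pex11a). It was 3 with eBayes trend and robust settings (Bdh1, Crot and Ehhadh) and 7 with array weights. With the mouse number as a replicate block 1 member was called, and with the replicate block and without db/db 1 there were 2 (Bdh1 and Crot). Over all genes, 1072 with all arrays, the count was 393 with the replicate block, 2641 with array weights, 279 at an adjusted p under 0.01 and 575 with at least a 1.5-fold change. It ranged from 490 to 2104 with each array left out and from 1382 to 1940 without db/db 1 and a further array. The labels do not say that mouse numbers pair animals, same-numbered mice had correlated deviations of -0.09 to 0.01, and of the 5 pairs 0 matched each other best. The sign of 24 of the 40 members was the same in every other fit, and 0 members passed the threshold with the opposite sign. Why the counts moved was not tested.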
